A study of Mus musculus with 60 samples.

Results

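The response of the mouse striatum to 1 injection of imipramine was compared with that to saline at 2 and at 4 h. The comparison used the arrays labelled imipramine and saline at these times, 3 for each drug and time, which made 12 of the 60 arrays analysed. All 45281 probes were tested at 2 h, at 4 h and on the average of both times, always against the saline arrays of the same time. The study profiled striatal gene expression on Illumina whole-genome arrays in naive, saline, imipramine, fluoxetine and tianeptine mice killed at 1, 2, 4 and 8 h.

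The mice were C57BL/6J males of 6 to 10 weeks and received imipramine at 10 mg/kg or saline intraperitoneally. Naive mice of the same times received no injection. Each array held a pool of RNA from 2 mice, so a group of 3 arrays stands for 6 mice and the spread between arrays is that between pools. The tissue held the rostral caudate putamen together with the nucleus accumbens, and a value is therefore a mean over all cells of both. In such tissue, fewer cells of a type and less RNA per cell cannot be told apart.

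Imipramine is a tricyclic antidepressant. It blocks the reuptake of serotonin and noradrenaline, and it antagonises muscarinic, histamine H1 and alpha1-adrenergic receptors. Most striatal neurons are medium spiny projection neurons, in which synaptic activity, dopamine and glutamate reach the nucleus through the cAMP and MAP kinase cascades. Immediate early genes such as Egr1, Egr2 and Fos are among the first targets of these cascades, and Npas4 also belongs to the immediate early genes. Their transcripts are induced within minutes without new protein, decay quickly, and include both transcription factors and phosphatases that shut the MAP kinases off again.

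No probe passed an adjusted p of 0.05 in limma at 2 h, at 4 h, on the average, or in the difference between 4 h and 2 h. The percentage called was thus 0 in each, and the smallest adjusted p were 1, 0.703, 1 and 1. At an unadjusted p under 0.05, limma gave 1554 probes at 2 h (3.43%, of which 1.61% with imipramine higher and 1.82% lower), 1647 at 4 h (3.64%, 2.01% higher and 1.63% lower), 1769 on the average (3.91%) and 1549 in the difference between times (3.42%, 1.77% higher and 1.65% lower). The methods' t-test gave 1460 probes at 2 h and 2028 at 4 h before adjustment, and 0 at each time after it. Every level and difference below is therefore a measurement that did not pass. Differences had a median SE of 0.12 log2 units at a single time and 0.0826 on the average. Differences below are imipramine minus saline on the log2 scale as fitted, with a weight for the chip an array lay on, so they can deviate slightly from the plain difference of the array means.

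The 12 arrays had medians of 7.15 to 8.61 log2 units before quantile normalisation, which set all to 7.57. Correlations between arrays of 1 group were 0.979 to 0.993, no higher than the 0.98 to 0.993 between an imipramine and a saline array matched by time. The first principal component of all arrays held 28.9% of the variance, and chip accounted for an R2 of 0.985 of it. Imipramine and saline arrays of 1 time never lay on the same chip, so the chips enter every single-time difference. Of 22 medium spiny neuron markers, 21 lay above the common median on all arrays of each group. This count does not identify the tissue. Of astrocyte markers 14 of 15, and of cortical neuron markers 10 of 14, also lay above it on all arrays of each group.

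Immediate early genes stood lower in the imipramine mice than in the saline mice at both times. Of 37 measured members of the list, 31 had a negative difference on the average, with a median of -0.10 and a range from -0.54 to 0.14, where the median of all genes was 0.00. The medians were -0.09 at 2 h, with 30 of 37 negative and 6 at an unadjusted p under 0.05 (1.82% of all probes were lower at this p), and -0.14 at 4 h, with 28 of 37 negative and 3 at such a p (1.63% of all probes). On the average 8 members had an unadjusted p under 0.05 with imipramine lower and 0 with imipramine higher, against 1.86% and 2.05% of all probes in these directions. The 8, described here after their values were seen, were Egr2, Egr1, Npas4, Klf2, Fosl2, Dusp6, Rgs2 and Per1.

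Egr2, a zinc finger transcription factor, had the lowest difference of the list. At 2 h its log2 signals were 9.11, 8.97 and 8.96 on the imipramine arrays and 9.34, 9.94 and 9.69 on the saline arrays. At 4 h they were 8.35, 8.18 and 8.68 with imipramine and 8.83, 9.10 and 8.67 with saline. The imipramine arrays lay below every saline array at 2 h, and at 4 h the highest imipramine array met the lowest saline array. The difference was -0.69 ± 0.22 (SE, n = 3 against 3, limma, unadjusted p = 0.00273) at 2 h, -0.39 ± 0.22 (unadjusted p = 0.0801) at 4 h and -0.54 on the average (95% interval -0.84 to -0.24, unadjusted p = 0.000774, adjusted p = 1). Naive mice had 9.20, 9.18 and 9.01 at 2 h, closer to imipramine than to saline, and 9.11, 8.68 and 9.02 at 4 h, closer to saline.

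Egr1, a related zinc finger factor and one of the most abundant early transcripts of the striatum, did not overlap between the groups at either time. At 2 h imipramine arrays read 14.64, 14.43 and 14.39 and saline arrays 14.65, 15.12 and 14.81. At 4 h imipramine arrays read 14.10, 13.77 and 14.16 and saline arrays 14.45, 14.30 and 14.41. The gap at 2 h was narrow, since the highest imipramine array almost met the lowest saline array. The difference was -0.36 ± 0.15 (limma, unadjusted p = 0.0213) at 2 h, -0.34 ± 0.15 (unadjusted p = 0.0266) at 4 h and -0.35 on the average (95% interval -0.56 to -0.14, unadjusted p = 0.00141, adjusted p = 1).

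Npas4, an activity-dependent transcription factor of neurons, was the other early gene without overlap at both times. At 2 h it read 8.42, 8.38 and 8.73 with imipramine and 8.91, 9.23 and 8.74 with saline. The 4 h signals were 8.51, 8.38 and 8.79 with imipramine and 9.33, 9.02 and 8.88 with saline. The third imipramine array was the highest of its group at both times and came closest to saline, with a narrow gap at 2 h (8.73 against 8.74). The difference was -0.45 ± 0.20 (limma, unadjusted p = 0.0239) at 2 h, -0.43 ± 0.20 (unadjusted p = 0.0336) at 4 h and -0.44 on the average (95% interval -0.71 to -0.17, unadjusted p = 0.00193, adjusted p = 1). A second Npas4 probe, with a mean of 7.38 below the common median, differed by 0.03 ± 0.12.

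The promoters of Egr2 and Npas4, early genes described above, are shown. CArG boxes bind serum response factor, and the core of the cAMP response element, TGACG or CGTCA on either strand, is bound by CREB. Sequences are the 250 bases before a start in the RefSeq annotation of GRCm38.p6, written along the gene's strand. CArG boxes and these cores, called core sites here, are in capitals. Npas4 had 1 window around a start and Egr2 had 5, of which 4 held a CArG box and 3 a core site. The Egr2 window shown was picked for having the most matches, so its matches are in part set by that choice. The Egr2 stretch lies at chr10:67537619-67537868 on the plus strand and the Npas4 stretch at chr19:4989972-4990221 on the minus strand.
Egr2: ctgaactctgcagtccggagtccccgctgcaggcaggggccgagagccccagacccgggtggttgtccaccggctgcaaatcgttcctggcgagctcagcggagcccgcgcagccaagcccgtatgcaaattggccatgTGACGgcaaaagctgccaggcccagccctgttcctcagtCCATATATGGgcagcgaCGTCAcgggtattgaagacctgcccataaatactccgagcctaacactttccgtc
Npas4: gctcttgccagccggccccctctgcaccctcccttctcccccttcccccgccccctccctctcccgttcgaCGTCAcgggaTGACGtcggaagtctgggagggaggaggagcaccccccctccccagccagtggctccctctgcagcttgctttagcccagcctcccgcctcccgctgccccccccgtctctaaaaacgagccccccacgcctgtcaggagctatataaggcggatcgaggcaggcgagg

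The Egr2 stretch holds 1 CArG box and 2 core sites, and the Npas4 stretch 0 CArG boxes and 2 core sites. Of the 8 early genes with an unadjusted p under 0.05, 7 had windows in the table (250 bases before to 50 after the start), all but Egr1. Egr2 was the only one with a CArG box, a motif found in 535 of all 32851 windows (1.63%). At least 1 window of Egr2, Klf2, Npas4, Per1 and Rgs2 held a core site, found in 6837 of all windows (20.8%), and those of Dusp6 and Fosl2 did not. A match describes letters and is no evidence that a factor was bound in these mice.

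Klf2, a Krüppel-like factor also expressed by endothelial cells, read 8.48, 9.17 and 8.94 with imipramine and 9.62, 9.49 and 8.89 with saline at 2 h. At 4 h it read 8.65, 8.60 and 8.93 against 9.37, 9.02 and 8.94. The third saline array was near the imipramine level at both times, and the groups overlapped at 2 h only. The average difference was -0.39 ± 0.13 (limma, unadjusted p = 0.0054, adjusted p = 1). Fosl2, a Fos-related partner of Jun proteins, read 9.63, 9.65 and 9.98 with imipramine against 9.88, 10.32 and 9.99 with saline at 2 h, and 9.50, 9.19 and 9.46 against 9.48, 9.88 and 9.53 at 4 h. The second saline array was the highest at both times, and the average difference was -0.28 ± 0.10 (limma, unadjusted p = 0.00811). Its other probes, both dim, differed by -0.01 each.

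Dusp6, the phosphatase that inactivates ERK, read 11.51, 11.36 and 11.97 with imipramine and 11.74, 12.20 and 11.79 with saline at 2 h. The 4 h signals were 11.41, 11.29 and 11.79 against 11.71, 11.74 and 11.79. The third imipramine array overlapped saline at both times while the others lay below it. The average difference was -0.27 ± 0.10 (limma, unadjusted p = 0.00842), and a second probe gave -0.42 ± 0.18 (unadjusted p = 0.0218) while a dim one gave -0.08. Rgs2, which speeds the switching-off of G protein signals, differed by -0.23 ± 0.11 on the average (unadjusted p = 0.031). Its imipramine arrays at 2 h read 9.18, 9.02 and 8.88 and its saline arrays 8.96, 9.59 and 9.37, with overlap through the first array of each group.

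Per1, a clock repressor that is also induced by activity and by glucocorticoids, read 11.23, 11.58 and 11.36 with imipramine and 11.77, 11.85 and 11.56 with saline at 2 h. At 4 h it read 11.10, 11.03 and 11.20 against 11.63, 11.44 and 11.09. The groups overlapped at both times, at 2 h only just. The average difference was -0.25 ± 0.12 (limma, unadjusted p = 0.0385). Its probes disagreed: another probe gave -0.17 ± 0.12 and the dimmest, with a mean of 7.47, gave 0.18 ± 0.09 (unadjusted p = 0.0474), in the opposite direction.

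**Figure D1:**
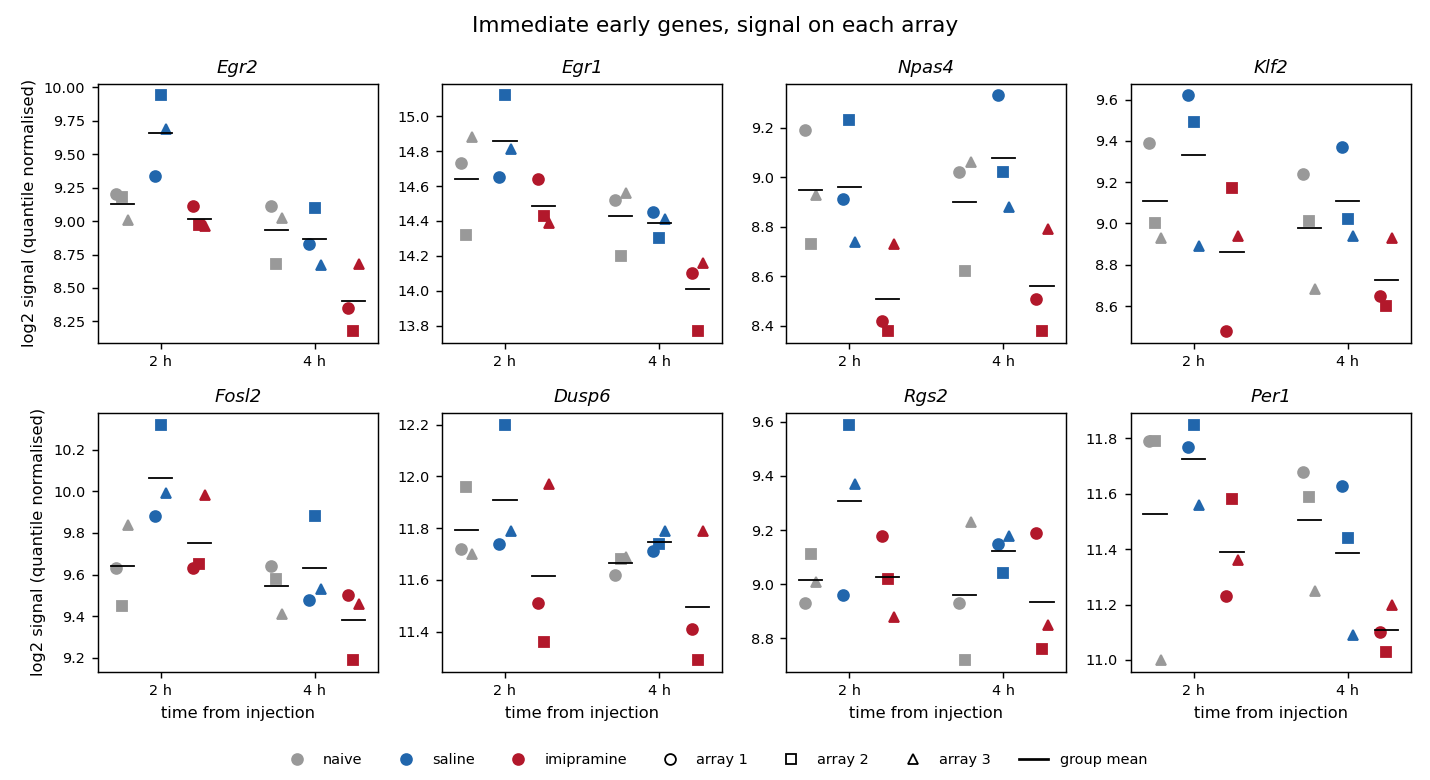
Quantile normalised log2 signal (y) of the 8 immediate early genes with an unadjusted p under 0.05 on the average of 2 and 4 h, by time from injection (x). Each point is 1 array of naive (grey), saline (blue) or imipramine (red) mice, shapes number the arrays, and lines are means of 3. The red points of Egr1 and Npas4 lie below all blue points at both times, those of Egr2 at 2 h only.

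Other classic members followed with larger errors. Fos, the partner of Jun in AP-1, read 8.38, 8.09 and 8.39 with imipramine and 9.12, 8.56 and 8.70 with saline at 4 h, without overlap, and differed there by -0.43 ± 0.23 (limma, unadjusted p = 0.0636). At 2 h its groups overlapped, with a difference of -0.12. Arc, whose product works at synapses, differed by -0.41 ± 0.30 at 2 h and -0.14 at 4 h, with an average of -0.28 ± 0.21 (unadjusted p = 0.192). Its array values overlapped at both times. Egr4 had an average of -0.31 ± 0.18 (unadjusted p = 0.0843). Nr4a3, an orphan nuclear receptor, had the highest average of the list, 0.14, and Junb stood at -0.33 at 2 h and 0.02 at 4 h.

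Groups without overlap were counted beside the share among all probes. At 2 h 3 of 37 early genes (8.11%) had every imipramine array below every saline array, against 3.71% of all probes. At 4 h these were 8 of 37 (21.6%), against 4.08% of all probes: Btg2, Egr1, Egr4, Fos, Ier5, Klf2, Maff and Npas4. Egr1 and Npas4 met this at both times (5.41% of the list, against 0.146% of all probes), both with a narrow gap at 2 h. No member had all imipramine arrays above saline at either time, against 3.26% of all probes at 2 h, 5.23% at 4 h and 0.148% at both. Differences were below 0 at both times for 22 of 37 members (59.5%) and for 23.8% of all genes. These shares describe the list and were not tested, since early genes move together and the lists were chosen with earlier results known.

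**Figure D2:**
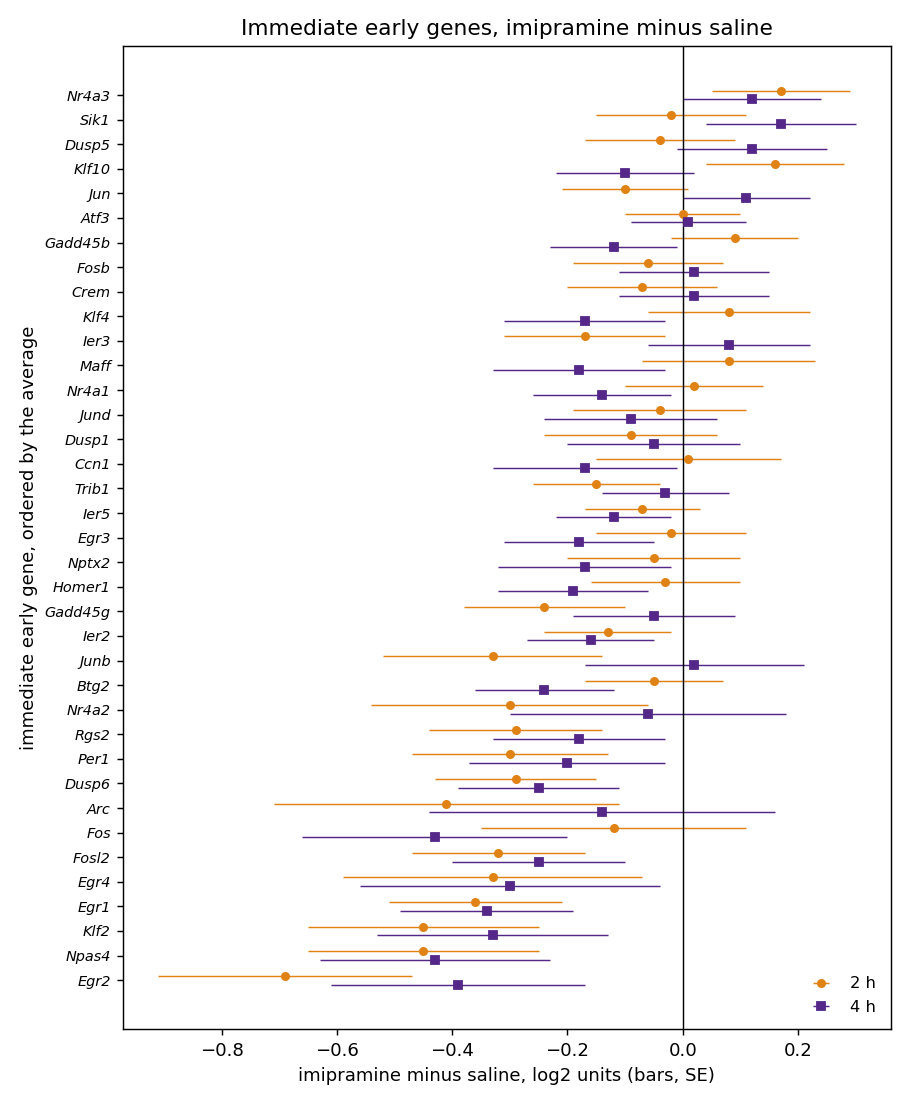
Fitted difference, imipramine minus saline in log2 units (x, bars give the SE), of each of the 37 measured immediate early genes (y, ordered by the average), at 2 h (orange circles) and 4 h (purple squares). On the average 31 genes lie left of 0, from -0.54 for Egr2 to 0.14 for Nr4a3.

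The list mean showed which arrays carried this. At 2 h the mean log2 signal over the 37 genes was 9.24, 9.24 and 9.37 with imipramine, 9.36, 9.57 and 9.36 with saline and 9.43, 9.29 and 9.24 in naive mice. At 4 h it was 9.16, 9.11 and 9.19 with imipramine, 9.37, 9.36 and 9.23 with saline and 9.29, 9.24 and 9.20 in naive mice. The second saline array stood highest at 2 h, and without it the 2 h median was -0.05 in place of -0.09, while without the third imipramine array of 2 h it was -0.15. The imipramine arrays were the lowest at 4 h and overlapped saline at 2 h. At 4 h the median was -0.04 in place of -0.14 with the arrays centred on their medians, and -0.04 with chip as a fixed block. The average over both times lay between -0.07 and -0.13 in the settings run.

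Comparisons with naive mice share their arrays with the comparison above, so their values are only set side by side. Saline against naive had early gene medians of 0.06 at 2 h and 0.09 at 4 h, with 5 members higher and 1 lower at an unadjusted p under 0.05 at 2 h (2.26% and 2.88% of all probes), and 3 higher and 0 lower at 4 h (2.09% and 2.3%). Imipramine against naive had medians of -0.02 and -0.02. For Egr2 at 2 h, saline stood 0.53 above naive.

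The flanking times of the series, 1 and 8 h, had their own imipramine and saline arrays. The early gene median was -0.11 at 1 h, with 7 members lower and 1 higher at an unadjusted p under 0.05 (2.18% and 1.9% of all probes), and 0.06 at 8 h, with 1 lower and 2 higher (1.82% and 1.89%). Npas4 stood at -0.77 at 1 h and -0.02 at 8 h, Arc at -1.16 at 1 h, Egr2 at -0.32 and 0.55, and Egr1 at -0.28 and 0.25. The average of 2 and 4 h minus that of 1 and 8 h had 0 probes past the threshold in limma (smallest adjusted p 1, 1770 or 3.91% at an unadjusted p under 0.05). In it Egr2 gave -0.66 (limma, unadjusted p = 0.00487), Egr1 -0.34 (unadjusted p = 0.0327) and Npas4 -0.04. Gadd45b, a growth arrest and DNA damage gene, stood the other way at 0.24 (limma, unadjusted p = 0.0364), and the list median was -0.07. This made 2 members lower and 1 higher at an unadjusted p under 0.05 (1.79% and 2.12% of all probes). No early gene had an unadjusted p under 0.05 in the difference between 4 h and 2 h, where the median was 0.03.

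Phosphatases and clock repressors outside the early list gave a few further low values. Dusp14, a dual-specificity phosphatase, read 10.17, 10.16 and 10.24 with imipramine and 10.05, 10.62 and 10.62 with saline at 2 h, and 9.99, 9.72 and 9.85 against 10.14, 10.25 and 10.41 at 4 h. It did not overlap at 4 h, and its average was -0.31 ± 0.11 (limma, unadjusted p = 0.00604, adjusted p = 1). Per2, the partner of Per1, read 11.14, 10.57 and 10.95 against 10.97, 11.30 and 11.22 at 2 h, and 10.19, 10.35 and 10.74 against 10.77, 10.91 and 10.78 at 4 h. Its 4 h groups did not overlap, its average was -0.33 ± 0.11 (unadjusted p = 0.00416), and its other probes gave -0.22 ± 0.12 and -0.03. The lists as a whole stayed near the median of all genes, at -0.01 over 11 MAP kinase phosphatases and 0.00 over 20 clock genes. Dusp1, the best known inducible phosphatase, stood at -0.07.

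Transcripts of the choroid plexus and ependyma, the epithelia that line the ventricles beside the dissected tissue, stood lower with imipramine as well. Of 16 measured markers, 15 had a negative difference on the average, with a median of -0.25 (medians of -0.29 at 2 h and -0.15 at 4 h), and 15 of 16 (93.8%) were below 0 at both times. Ttr, the thyroid hormone carrier secreted by the choroid plexus, read 10.91, 10.73 and 13.76 with imipramine and 10.75, 13.74 and 15.40 with saline at 2 h. The 4 h signals were 10.77, 11.62 and 11.17 with imipramine and 13.81, 13.15 and 15.43 with saline. The groups overlapped at 2 h and lay apart at 4 h, and naive arrays also ranged widely, with 11.70, 14.49 and 11.77 at 2 h and 10.95, 11.79 and 13.26 at 4 h. The Ttr difference was -1.55 ± 1.22 (limma, unadjusted p = 0.208) at 2 h, -3.03 ± 1.22 (unadjusted p = 0.0164) at 4 h and -2.29 on the average (95% interval -3.98 to -0.60, unadjusted p = 0.00884, adjusted p = 1).

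Kl, the klotho protein of that epithelium, and Sostdc1, a secreted BMP antagonist, were the other markers with an unadjusted p under 0.05 on the average, which made 3 of 16 lower and 0 higher (1.86% and 2.05% of all probes). Kl read 7.87, 7.98 and 8.24 with imipramine and 7.83, 8.28 and 9.37 with saline at 2 h, then 8.01, 8.08 and 8.03 against 8.37, 8.46 and 9.15 at 4 h. Its average was -0.58 ± 0.26 (limma, unadjusted p = 0.0297) and that of Sostdc1 was -0.49 (unadjusted p = 0.0479). The third saline array was the highest for both genes at both times. The list mean on the saline arrays was 8.51, 8.77 and 9.23 at 2 h and 8.74, 8.71 and 9.14 at 4 h, against 8.38, 8.42 and 8.75, and 8.34, 8.52 and 8.54, with imipramine.

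Leaving out the third saline array at both times, an alternative chosen after these values were seen, moved the choroid plexus median to -0.12 at 2 h, -0.07 at 4 h and -0.11 on the average, and the Ttr average to -1.49 (limma, unadjusted p = 0.114). Kl then stood at -0.21 (limma, unadjusted p = 0.447) and Sostdc1 at -0.16 (unadjusted p = 0.531), so that no unadjusted p under 0.05 was left for these 3 genes. The early gene median was then -0.12 at 2 h, -0.16 at 4 h and -0.12 on the average, and Egr2 stood at -0.61, Npas4 at -0.55 and Egr1 at -0.37. With 1 array left out in turn, the choroid plexus median ranged from -0.42 (without the second saline array) to -0.13 at 2 h and from -0.33 (without the second saline array) to -0.07 at 4 h. Choroid plexus medians were 0.04 at 1 h and 0.08 at 8 h. The part of choroid plexus RNA in the differences of other gene groups was not tested.

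**Figure D3:**
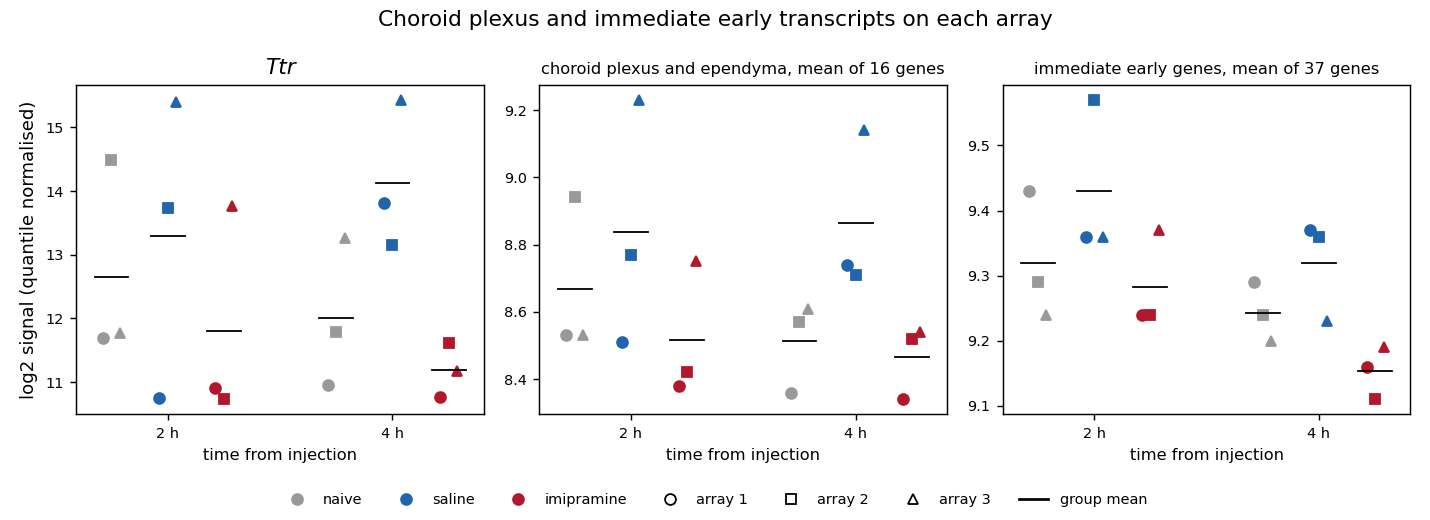
Log2 signal (y) by time from injection (x) of Ttr (left), of the mean over 16 choroid plexus and ependyma markers (middle) and of the mean over 37 immediate early genes (right), with 1 point per array, shapes for array numbers and lines for means of 3. The third saline arrays (blue triangles) top the first 2 panels, at 15.40 and 15.43 for Ttr, but not the early gene panel.

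Genes with the smallest p on the average, taken among probes at or above a mean of 7.55, had small differences. Crybg2, which holds crystallin-type domains, read 8.60, 8.57 and 8.75 with imipramine and 8.20, 8.54 and 8.26 with saline at 2 h, and 8.71, 8.83 and 8.66 against 8.41, 8.35 and 8.41 at 4 h. The groups did not overlap at either time, and the average was 0.32 ± 0.08 (limma, unadjusted p = 0.000192, adjusted p = 1), while its other probe gave 0.07. Plin2, which coats lipid droplets and is a target of PPAR receptors, read 8.05, 8.24 and 7.97 with imipramine and 7.79, 7.80 and 7.58 with saline at 2 h. At 4 h it read 8.10, 8.16 and 7.89 against 7.89, 7.69 and 7.60, which left the lowest imipramine array just at the highest saline array. Its average was 0.36 ± 0.09 (unadjusted p = 0.000433, 95% interval 0.17 to 0.55), and no other probe of it was present.

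Spring1, a regulator of the sterol-sensing SREBP pathway, read 9.09, 9.08 and 9.03 with imipramine and 8.88, 8.91 and 8.85 with saline at 2 h, and 9.06, 9.40 and 9.26 against 8.88, 8.78 and 8.83 at 4 h. It was separated at both times with an average of 0.33 ± 0.09 (limma, unadjusted p = 0.000444), but its other probe gave -0.03. Cirbp, a cold-inducible RNA-binding protein, read 11.04, 11.15 and 10.76 with imipramine and 10.96, 10.43 and 10.51 with saline at 4 h, with an average of 0.32 ± 0.09 (unadjusted p = 0.000811). Rbm3, the other gene of that list, stood the other way at -0.10. The remaining higher genes of the ranking were Lsmem1 (0.36), Lmtk2 (0.30), Pkd2l1 (0.33), Slc11a1 (0.31), Ap5b1 (0.27) and B3galt6 (0.25).

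The lower genes of the ranking were Egr2, Egr1, Npas4 and 7 genes outside the early list. Camkk2, the kinase that activates CaMKI, CaMKIV and AMPK, read 10.65, 10.72 and 10.69 with imipramine and 10.83, 10.85 and 10.82 with saline at 2 h. The 4 h signals were 10.49, 10.43 and 10.28 against 10.66, 10.85 and 10.73. The groups were tight and apart at both times, with an average of -0.24 ± 0.07 (limma, unadjusted p = 0.000769), but its 3 other probes gave -0.05, -0.01 and 0.05. Trib2, a pseudokinase scaffold, read 11.34, 11.16 and 10.96 against 11.22, 11.40 and 11.39 at 2 h and 10.77, 10.85 and 11.02 against 11.36, 11.10 and 11.41 at 4 h. Its average was -0.29 ± 0.09 (unadjusted p = 0.00167), and a second probe, with a mean of 7.11 below the common median, gave -0.28 ± 0.08 (unadjusted p = 0.00171). Snrnp70, of the U1 spliceosome particle, stood at -0.40 ± 0.13, Creld2, a resident of the endoplasmic reticulum, at -0.30, Pkig, an inhibitor of protein kinase A, at -0.28, Ptpn6, a phosphatase of immune cells, at -0.26 and Ing2, a chromatin reader, at -0.24.

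The other probes of ranked genes had smaller differences. Of the 20 genes ranked on the average, 14 had 20 other probes, and 16 of these had the same direction as the named probe. Their median difference in that direction was 0.05, against 0.31 for the named probes, and 1 had an unadjusted p under 0.05. Of the 20, 7 lay below the common median and may be too dim to show a difference. The median of the other 13 was 0.06, with 11 in the named direction. The named probes were picked for a small p, which favours extreme values, and the other probes were not.

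**Figure D4:**
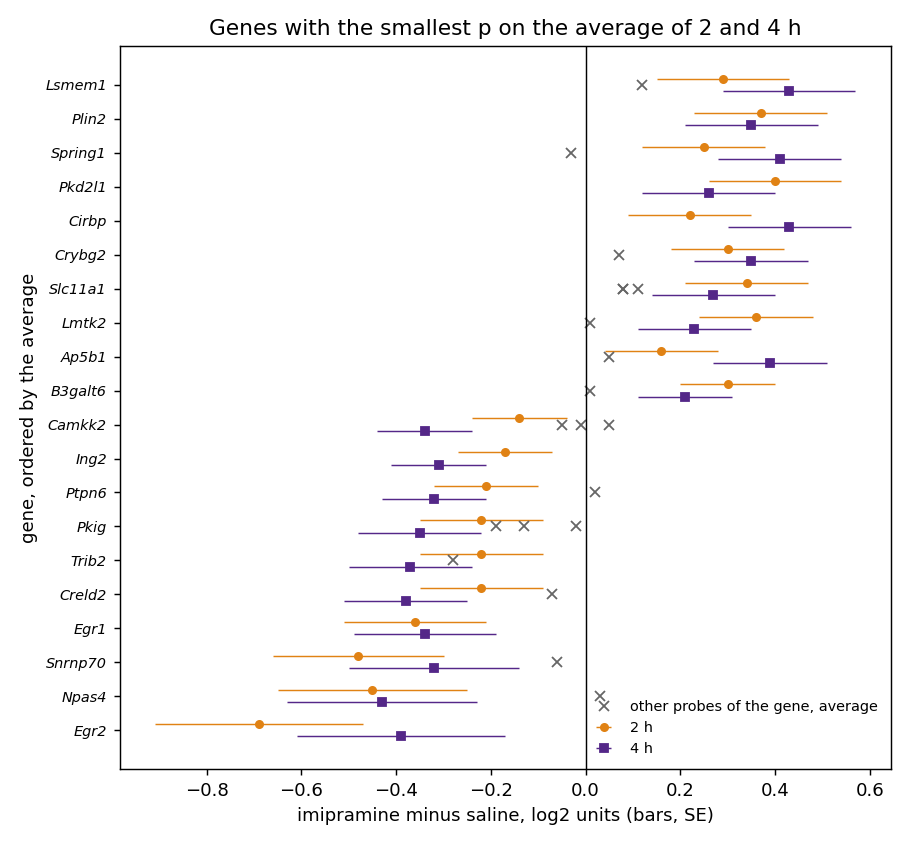
Fitted difference, imipramine minus saline in log2 units (x, bars give the SE), of the genes with the smallest p on the average of 2 and 4 h (y), at 2 h (orange circles) and 4 h (purple squares), with the average of each other probe of the same gene as a cross. The named probes lie 0.24 to 0.54 from 0 on the average, and most crosses lie near 0, with a median of 0.05 in the named direction.

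At 2 h alone, Naglu, a lysosomal enzyme that degrades heparan sulphate, read 9.01, 9.10 and 8.75 with imipramine and 8.85, 8.53 and 8.26 with saline. The arrays overlapped, and the difference was 0.42 ± 0.11 (limma, unadjusted p = 0.000382, adjusted p = 1), with -0.06 at 4 h. Exosc10 (0.53), Phex (0.47), Tmem229b (0.44) and Otulin (0.32) were the other higher genes. Cacna1a, the pore subunit of P/Q-type calcium channels, read 9.48, 9.91 and 9.60 against 10.06, 10.18 and 9.91, with the groups meeting at 9.91, and differed by -0.40 ± 0.12 (unadjusted p = 0.00152). Gng2 (-0.44), Klhl32 (-0.37), Mnat1 (-0.34) and Phf10 (-0.30) were the other lower genes. The 7 other probes of these 10 genes had a median of 0.03 in the named direction, against 0.41 for the named probes, and 1 of them, for Cacna1a, had an unadjusted p under 0.05 at 2 h.

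At 4 h alone the smallest adjusted p was 0.703. Ctdspl2, a phosphatase of the CTD small phosphatase type, read 7.89, 8.00 and 8.06 with imipramine and 7.39, 7.52 and 7.62 with saline, a difference of 0.47 ± 0.10 (limma, unadjusted p = 2.12e-05, adjusted p = 0.703). Its 5 other probes ranged from -0.09 to 0.07 at 4 h. Cgnl1, a junction protein of endothelia and epithelia, read 9.56, 9.73 and 9.63 with imipramine, 10.07, 10.01 and 10.07 with saline and 9.76, 9.83 and 9.89 in naive mice, so that naive arrays lay between. It differed by -0.45 ± 0.10 (unadjusted p = 3.11e-05, adjusted p = 0.703). Nrarp, a feedback inhibitor of Notch signalling, read 11.08, 11.37 and 11.62 with imipramine, 10.66, 10.84 and 10.90 with saline and 10.94, 11.46 and 11.16 in naive mice. Its difference was 0.53 ± 0.13 (limma, unadjusted p = 9.8e-05), with every naive array above all saline arrays and within or near the imipramine range. Cpox (0.49), an enzyme of haem synthesis, Sgk3 (0.48) and Btk (0.38) were the other higher genes, and Hspbap1 (-0.45), Dmtn (-0.35) and Camkk2 (-0.34) were among the lower ones. Erdr1 read 8.52, 9.36 and 9.62 against 9.43, 10.83 and 10.63, a difference of -1.22 ± 0.37 (unadjusted p = 0.00175) with overlap. Of the 10 genes named for 4 h, 8 had 23 other probes, 15 of them in the named direction. Their median difference in that direction was 0.04, against 0.46 for the named probes, and 0 had an unadjusted p under 0.05 in it. Other Sgk3 probes ranged from -0.18 to 0.14 at 4 h, and other Cgnl1 probes, both dim, gave 0.01 and -0.01.

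The difference between the times was tested on its own and passed for no probe. Gng2, a G protein gamma subunit, was lower with imipramine at 2 h (-0.44) and higher at 4 h (0.35). Its signals were 8.53, 8.63 and 9.04 against 9.26, 9.26 and 9.02 at 2 h and 9.26, 9.08 and 9.44 against 8.93, 8.92 and 8.89 at 4 h. The 4 h minus 2 h difference was 0.80 ± 0.19 (limma, unadjusted p = 0.000144, adjusted p = 1). A second Gng2 probe, with a mean of 9.30, gave -0.05 at 2 h and -0.20 at 4 h, the other way between the times. Of the 6 other probes of the 10 genes named for this difference, 2 had the direction of the named probe, with a median of -0.05 against 0.63 for the named probes. Slc39a4, a zinc transporter, gave 0.66 with -0.33 at 2 h and 0.33 at 4 h, and Phex gave -0.74, the lowest among the genes named for this difference.

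The lists of monoamine genes and of receptors, which hold the targets of imipramine named above among others, had no member with an unadjusted p under 0.05 at 2 h, at 4 h or on the average. Medians of the averages were -0.02 over 10 measured monoamine transporter and metabolism genes, 0.01 over 12 serotonin receptors, -0.01 over the 2 adrenergic receptors measured of 9 listed, 0.00 over 8 muscarinic and histamine receptors and 0.00 over 5 dopamine receptors. Slc6a4, the serotonin transporter, whose transcript is made in cell bodies outside the striatum, read 7.07, 7.17 and 7.11 with imipramine and 7.37, 7.29 and 7.24 with saline at 4 h, without overlap. At 2 h it read 7.40, 7.31 and 7.20 against 7.59, 7.03 and 7.45, and the average was -0.10 ± 0.08 (95% interval -0.25 to 0.06). Most of these signals lay below the common median of 7.57.

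Slc6a2, the noradrenaline transporter, had an average of -0.08 (95% interval -0.27 to 0.11) and Slc6a3, the dopamine transporter, -0.02 (-0.40 to 0.37). Chrm3, a muscarinic receptor, stood at 0.23 (95% interval -0.02 to 0.48, limma, unadjusted p = 0.0655) and Hrh1, the histamine H1 receptor, at 0.14 (-0.07 to 0.34). Drd1, of the direct pathway, stood at -0.10 (-0.31 to 0.12) and Drd2, of the indirect pathway, at -0.11 (-0.31 to 0.09). Each interval includes 0 and differences of either sign, so that similar levels were not shown either.

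Medium spiny neuron markers had a median of -0.04 on the average (17 of 22 negative), and of 0.00 without the third imipramine array of 2 h. The lowest p was that of Gpr6, an orphan receptor of the indirect pathway, at -0.23 ± 0.10 (limma, unadjusted p = 0.0222). Of the 8 direct-pathway markers, 8 were negative at 2 h with a median of -0.09, and without the third imipramine array of 2 h the median was 0.02, so this rests on that array. Medians on the average were -0.02 for interneurons, 0.01 for cortical neurons, -0.03 for astrocytes, -0.02 for oligodendrocytes, 0.01 for endothelial cells and -0.10 for erythroid cells (-0.19 at 2 h, 6 of 7 negative on the average), the last -0.02 without the first imipramine array of 2 h.

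For microglial markers the median was 0.09 at 2 h, where 10 of 13 were positive, and -0.12 at 4 h, where 12 of 13 were negative. Without the first saline array of 2 h the 2 h median was 0.03. The list means at 2 h were 10.27, 10.30 and 9.99 with imipramine and 10.14, 9.95 and 10.23 with saline, and at 4 h 10.20, 10.02 and 9.88 against 10.31, 10.07 and 10.31. The arrays overlapped at both times. In the 4 h minus 2 h difference the median was -0.16, with 1 member lower at an unadjusted p under 0.05 (1.65% of all probes). Inflammation genes had medians of -0.10 at 2 h, -0.11 at 4 h and -0.10 on the average (15 of 20 negative). Their list means did not overlap, with 8.00, 8.09 and 8.01 for imipramine against 8.32, 8.10 and 8.11 for saline at 2 h. At 4 h they were 8.02, 8.05 and 8.03 against 8.09, 8.07 and 8.14. The gaps were narrow at both times, and means of other lists lay apart too, as given below. Without the first saline array of 2 h the 2 h median of inflammation genes was -0.06 in place of -0.10. Most members were dim, since 7 to 9 of 20 lay above the common median on all arrays of a group. Stat3, which carries cytokine signals, stood at -0.24 (limma, unadjusted p = 0.0162) and Cxcl1, a neutrophil chemokine, at -0.22 (unadjusted p = 0.0456). Other Stat3 probes, with means of 10.20 and 8.21, gave -0.07 and 0.14, the latter in the opposite direction.

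Hormone, stress and metabolic lists had medians from -0.06 to 0.03 on the average. Over 28 glucocorticoid-responsive genes the median was 0.01. It was 0.08 without the first saline array of 2 h and -0.05 without the third saline array of 2 h. Angptl4, a lipase inhibitor that is also a PPAR target, stood at 0.28 (limma, unadjusted p = 0.0473) and Tsc22d1 at -0.20, whereas the standard glucocorticoid markers Fkbp5 and Tsc22d3 stood at 0.03 and -0.05. A second probe gave 0.07 for Angptl4 and 0.11 for Tsc22d1, the latter in the opposite direction. Ddit4, an inhibitor of mTOR, differed by 0.41 at 4 h (unadjusted p = 0.0238). Heat shock genes had a median of -0.06 (14 of 18 negative, 0 with an unadjusted p under 0.05), integrated stress response genes -0.01, cholesterol synthesis genes -0.01, lysosomal genes 0.03 and PPAR targets 0.01. Of the lipid genes, Lss, the lanosterol synthase, stood at -0.28 (limma, unadjusted p = 0.0108) and Npc1, the lysosomal cholesterol exporter, at 0.14 (unadjusted p = 0.0446), while other Npc1 probes ranged from -0.13 to 0.11.

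Neuronal signalling lists had medians on the average of -0.03 for 16 opioid and neuropeptide genes, -0.01 for 19 glutamate receptor genes and 0.01 for 13 GABA genes. Medians were 0.01 for 23 potassium channel genes, -0.05 for 20 cAMP and PKA genes (15 negative) and -0.07 for 13 neurotrophin genes. Neurotrophin list means overlapped at 2 h. At 4 h they were 10.18, 10.22 and 10.12 with imipramine against 10.26, 10.34 and 10.27 with saline, without overlap. Means of other lists lay apart at 4 h as well. Glutamate receptor genes were lower, with 10.05, 10.03 and 10.02 against 10.06, 10.07 and 10.12. GABA genes were higher, with 10.24, 10.31 and 10.25 against 10.17, 10.21 and 10.19, and so were PPAR targets. The share of lists that lay apart was not counted. Oprm1, the mu opioid receptor, stood at 0.20 (limma, unadjusted p = 0.0166) and Grin2d, an NMDA receptor subunit, at -0.21 (unadjusted p = 0.0206). Ribosomal, respiratory chain and proteasome genes had medians of -0.01, -0.03 and -0.03. Of 21 measured genes that the study uses as examples, the median was -0.07, with 5 lower and 2 higher at an unadjusted p under 0.05 (1.86% and 2.05% of all probes). The study took these examples from drug-responsive genes in data that include these arrays. Some of them, such as Fosl2, are also in the early list counted above, so this list is not independent. Cdkn1a, a cell cycle inhibitor among them, stood at 0.01 ± 0.14 (95% interval -0.26 to 0.29).

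**Figure D5:**
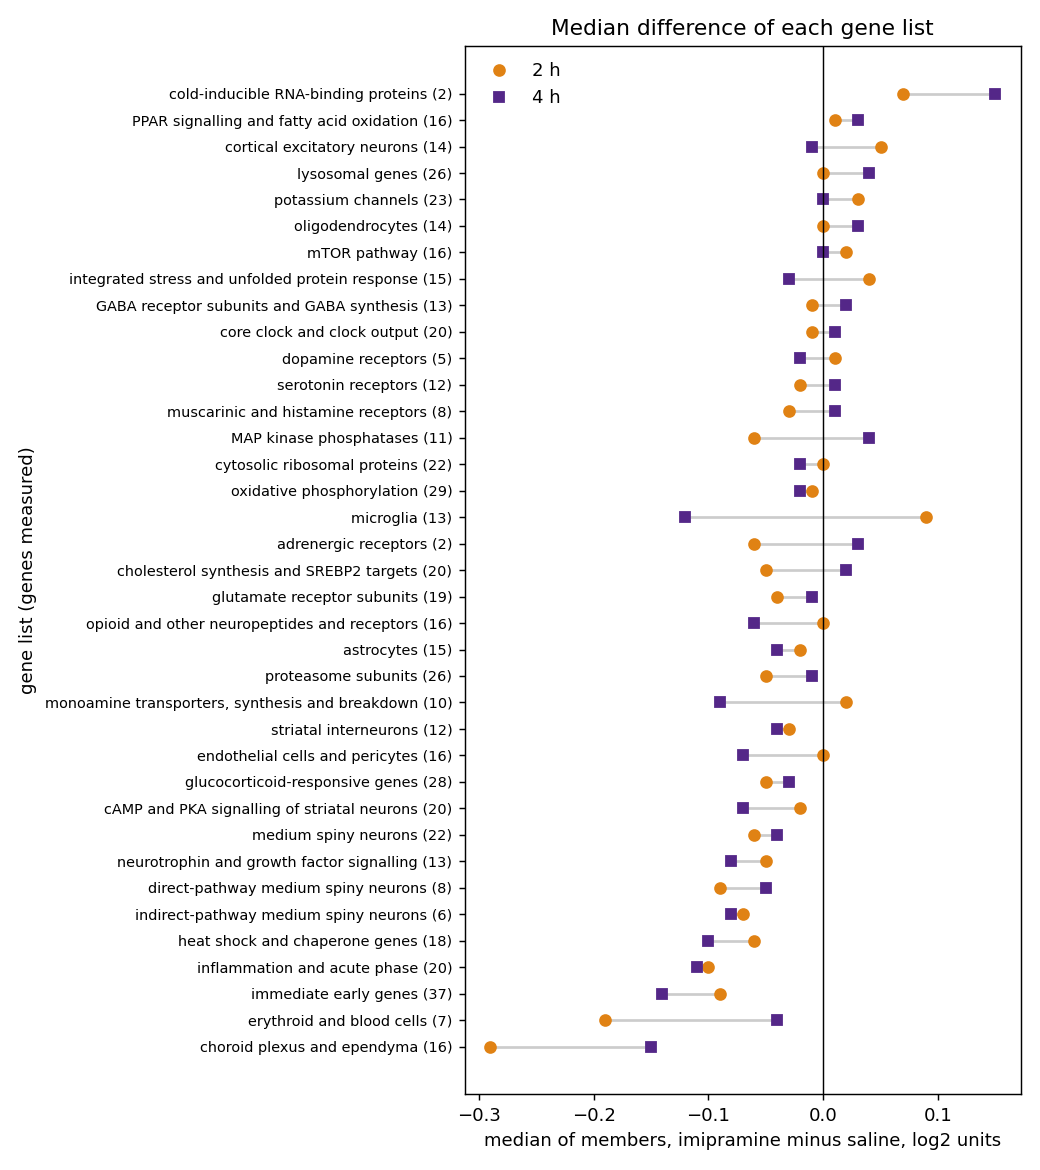
Median difference over the measured members of each gene list, imipramine minus saline in log2 units (x), at 2 h (orange circles) and 4 h (purple squares), with lists (y) ordered by the mean of both and the number of genes measured in brackets. Choroid plexus and ependyma markers lie farthest below 0, at -0.29 and -0.15, followed by erythroid cell markers at -0.19 and -0.04 and immediate early genes at -0.09 and -0.14.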

How the data were processed

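RNA of the 60 striatal samples had been hybridised to 1-colour Illumina arrays. The deposited non-normalised log2 signals, which the authors made with BeadStudio and the beadarray package, were quantile normalised here between arrays. A background subtraction is named in the study's methods, without a statement on whether this table had received it, and detection values were not used, so signal over background is unknown. Precision is limited by the number of arrays. The authors' quantile normalised series matrix, also log2, served as an alternative.

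All 45281 probes entered a linear model in limma 3.58.1 (R 4.3.3, statmod 1.5.0) with 1 mean for each of the 20 groups and chip as a random block (consensus correlation 0.201). P-values were 2-sided, moderated by empirical Bayes and adjusted for each comparison after Benjamini and Hochberg (threshold 0.05). The pipeline was tested on simulated data. The 12 arrays lay on 10 chips of 6 arrays in 3 chip series, and no chip held same-time imipramine and saline arrays.

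Probes with 1 gene symbol numbered 34885, those with several 18 and those without 10378. A total of 34807 matched a gene of the RefSeq annotation of GRCm38.p6, which also gave the promoters. Lists used the brightest probe of a gene. Named by rule were any genes past the threshold, the 10 higher and 10 lower genes with the smallest p on the average and 5 of each at 2 h, at 4 h and in their difference (all at or above the median probe mean of 7.55), the study's example genes and up to 3 members of each of the 38 lists. Other members are named after their values were seen. The members and lists were chosen with earlier results of these data known. Alternatives were other scalings, chip as a fixed block or left out, chip series, replicate block, brighter probes, fewer groups, z-scores, the methods' t-test and leaving out arrays.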

Additional observations from a re-analysis of the deposited data

How the results depend on the processing

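No probe passed in any of the 23 alternative settings, in none of the 112 recomputed counts, and the smallest adjusted p was 0.2, for the times of 2 and 4 h against 1 and 8 h with chip as a fixed block. At an unadjusted p under 0.05, single comparisons gave 1896 to 2461 probes with chip as a fixed block, 1237 to 2139 with median centring, 1332 to 1637 without the chip block, 646 to 957 among the 22641 brighter probes, 813 to 1795 with only the groups compared, 1797 to 2557 with z-scores within chips and 1439 to 1979 with 1 array left out. Replicate numbers are shared between the groups, but the correlations of same-numbered deviations were -0.0384, -0.127 and -0.449 at 2 h and 0.075, 0.212 and -0.439 at 4 h, so the number as such pairs no samples. The 6 pairs from the same chip series, 1 of them same-numbered, correlated at 0.202 to 0.526, and with chip series as a fixed block 0 probes passed and 1996 to 2348 had an unadjusted p under 0.05. With the replicate block 0 probes passed and 1556 (2 h), 1782 (4 h) and 1843 (average) had an unadjusted p under 0.05. Leaving out saline array 3 at both times, chosen after seeing the data, gave 0 passed and 1599 to 1876. Of 128 differences of named genes, 2879 recomputed values included 0 of the other direction. Many of these genes were picked for a small p in the same arrays, which the alternatives largely share. A kept direction was therefore likely beforehand and says little about how firm a difference is. Of 2394 recomputed list medians, 81 moved by over 1 SD of the arrays, 32 of them with median centring, and the cause was not tested. Chip and drug cannot be fully separated at a single time.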
